A study of Mus musculus with 30 samples.

Results

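CT-26 and Colon 26 are 2 carcinoma lines of the BALB/c mouse colon, and their transcriptomes were compared in culture, away from the cells of a host. All 3 libraries labelled as cell culture of Colon 26 were set against all 3 of CT-26, which makes 6 of the 30 libraries of the series. The other 24 libraries are tumors of 100, 400 and 800 mm3, 4 per line and size, grown under the skin of female BALB/c mice. They served here to ask whether the genes that separated the cultures also separated tumors. Gene lists, chromosome medians and summed leukocyte markers of tumors were also set beside those of the cultures. CT-26 came from ATCC, and Colon 26 from RIKEN BioResource Research Center and Nanjing CoBioer Biotechnology, and no label tells which of these sources a Colon 26 library had. The general protocol of the series describes dosing of mice with checkpoint antibodies, but no label assigns an antibody to a library. Nothing says that the 3 libraries of a line came from separately grown cultures, so p-values measure only the spread between these libraries, which may be technical.

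Epithelial cells of the colon are joined by E-cadherin and Epcam and carry keratins 8, 18 and 20. Carcinoma lines kept for long in culture can hold few of these genes and can express genes usually seen in fibroblasts, such as those of collagen I. Lines of one tissue may also differ in the factors they secrete and in their adhesion molecules, drug-handling enzymes and antigen-presenting genes, which are all features that matter when a line serves as a tumor model.

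The 3 CT-26 cultures had summed counts of 21384712 to 27856360 (median 23995703), against 36042925 to 39722570 (median 39425176) for Colon 26. The library numbers of the lines do not interleave and depth differed as well, so line, batch and depth cannot be told apart. Libraries of one line varied by 2.91 to 4.53 times the variance of counting alone, and each was used as 1 replicate. Mitochondrial genes took 3.10 to 3.27% of the counts in CT-26 cultures and 1.54 to 1.62% in Colon 26 cultures.

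CPM here means counts scaled to library sizes that TMM had corrected, in the standard unit of edgeR. FPKM are the authors' length-corrected values and were used to rank genes by difference of level. CPM are not corrected for gene length. Where CPM of different genes are set side by side or summed, as for cell type markers, they give rough levels only. A log2 fold change gives Colon 26 relative to CT-26. The standard error (SE) printed with it is the absolute log2 fold change divided by the square root of edgeR's F statistic. It is thus derived from the test and was not estimated directly. Where a line was near 0, it can understate how uncertain the fold is. Genes were called where edgeR's quasi-likelihood test reached an adjusted p of at most 0.1 together with a change of at least 1 on the log2 scale in either direction. A line whose 3 libraries all had 3 or fewer counts of a gene was taken as at the floor. The fold was then computed against 3 counts in each library. It is a lower bound for the observed counts and not a confidence limit. It leaves out variation between cultures and, where a library held counts, may not cover all counting error.

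Of 14334 genes tested, 3283 (22.9%) were called, 1520 (10.6%) higher and 1763 (12.3%) lower in Colon 26. Of the called genes 2624 were protein-coding. The libraries of the lines did not overlap in 80.5% of all tested genes, so a lack of overlap says little by itself, and it held in 3247 of the called genes. The median log2 fold change of all tested genes was 0.01. Large differences occurred in both directions, with 214 called genes at 5 or more and 199 at -5 or less on the log2 scale. With 3 libraries against 3, a two-sided exact permutation test of a single gene cannot go below p = 0.10. With Wnt genes and the Wnt-regulated genes that the study names left aside, 42 protein-coding genes were named. The 14 per direction with the largest fold came from called genes without overlap, at 10 CPM or more in the higher line. The 8 per direction with the largest difference of FPKM came from all called genes, and Timp3 and Crip1 met both rules. The adjusted p of the 42 genes in culture was at most 1.55e-11 (edgeR).

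**Figure D1:**
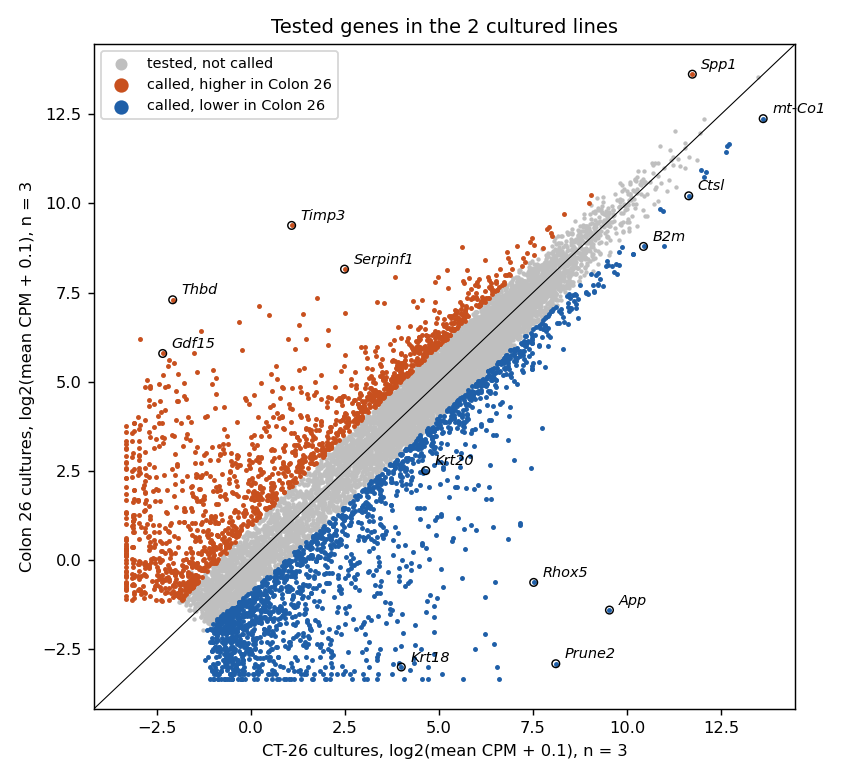
Each point is one of the 14334 genes tested, placed by its level in CT-26 (horizontal axis) and Colon 26 (vertical axis) as log2(mean CPM + 0.1) over 3 cultures, with the diagonal as equal levels. Called genes lie on both sides of the diagonal, 1520 higher and 1763 lower in Colon 26.

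The genes with the largest folds were close to absent in one line and plainly present in the other. The starts of 4 of them are shown, chosen by fold and not by CpG content, in which these 4 differ widely. They are, in each direction, the first 2 genes by fold whose RefSeq promoter (GRCm38.p6, 250 bases before to 50 after the start) begins within 500 bases of the GENCODE gene start. Each runs 5′ to 3′ along the gene's strand, with every CG dinucleotide in capitals.
Gdf15, chr8:70632407-70632706 (minus strand): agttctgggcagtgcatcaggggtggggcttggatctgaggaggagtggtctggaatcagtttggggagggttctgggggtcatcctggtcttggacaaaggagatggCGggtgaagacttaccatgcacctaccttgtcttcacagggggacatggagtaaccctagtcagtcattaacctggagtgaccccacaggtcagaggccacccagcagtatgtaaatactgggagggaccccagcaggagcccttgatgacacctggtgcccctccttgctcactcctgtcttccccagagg
Timp3, chr10:86300162-86300461 (plus strand): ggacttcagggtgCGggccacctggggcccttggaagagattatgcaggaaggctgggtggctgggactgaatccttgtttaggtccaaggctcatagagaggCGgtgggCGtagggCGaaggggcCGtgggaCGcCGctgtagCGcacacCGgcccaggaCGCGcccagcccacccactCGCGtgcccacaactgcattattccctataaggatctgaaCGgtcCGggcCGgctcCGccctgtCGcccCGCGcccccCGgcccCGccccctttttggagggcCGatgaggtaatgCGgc
Prune2, chr19:16955868-16956167 (plus strand): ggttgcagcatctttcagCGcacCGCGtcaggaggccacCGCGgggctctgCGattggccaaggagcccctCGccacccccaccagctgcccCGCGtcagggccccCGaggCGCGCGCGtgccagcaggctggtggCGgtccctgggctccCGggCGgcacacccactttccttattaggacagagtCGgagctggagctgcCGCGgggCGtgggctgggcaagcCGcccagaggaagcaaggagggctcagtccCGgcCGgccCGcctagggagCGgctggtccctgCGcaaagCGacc
App, chr16:85173658-85173957 (minus strand): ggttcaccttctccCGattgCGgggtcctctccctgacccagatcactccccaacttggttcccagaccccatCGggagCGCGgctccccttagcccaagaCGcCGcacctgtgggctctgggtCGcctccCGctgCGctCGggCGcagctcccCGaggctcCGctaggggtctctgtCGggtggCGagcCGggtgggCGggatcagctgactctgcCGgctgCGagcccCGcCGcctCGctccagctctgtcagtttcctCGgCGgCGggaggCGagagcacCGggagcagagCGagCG
The Gdf15 stretch held 1 CG, that of Timp3 24, that of Prune2 28 and that of App 30. Among all 32851 promoters of the table, each of the same length, the median was 7. At least as many CG as in Gdf15 were held by 94.57% of them, as in Timp3 by 19.98%, as in Prune2 by 14.18% and as in App by 11.68%. Methylation was not measured. Of the 42 named genes 29 had a promoter in the table.

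Thbd and Timp3 stood out among the genes higher in Colon 26. Thbd encodes thrombomodulin, the receptor that turns thrombin toward activation of protein C. Its levels were 0.187, 0.183 and 0.0417 CPM in CT-26 against 155, 155 and 162 CPM in Colon 26, a log2 fold change of 10.12 (SE 0.10). Timp3 encodes a matrix-bound inhibitor of metalloproteases. Its levels were 2.11, 2.08 and 1.88 CPM in CT-26 against 658, 655 and 687 CPM in Colon 26, a log2 fold change of 8.36 (SE 0.05). In both genes the libraries of a line lay close together and the lines far apart. Exons of Timp3 overlap Syn3 on the other strand, and Syn3 averaged 0.193 and 0.144 CPM in CT-26 and Colon 26.

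Gdf15, Cx3cl1 and Cspg4 were also close to absent from CT-26. Gdf15 is a distant member of the TGF-beta family that cell stress induces and that lowers appetite through a hindbrain receptor. Its levels were 0.140, 0.110 and 0.0417 CPM in CT-26 against 54.3, 56.4 and 55.2 CPM in Colon 26, and with every CT-26 library at the floor it was at least 442-fold higher in Colon 26. Cx3cl1 (fractalkine), a membrane-bound chemokine, was at 0.140, 0.0365 and 0.250 CPM in CT-26 against 43.5, 46.8 and 48.2 CPM in Colon 26, a log2 fold change of 8.35 (SE 0.15) that became 9.08 without CT-26 replicate 3. Cspg4, the proteoglycan NG2 of pericytes and melanoma cells, was at 0.421, 0.402 and 0.0834 CPM in CT-26 against 80.5, 86.4 and 88.0 CPM in Colon 26, a log2 fold change of 8.12 (SE 0.12). The libraries of the lines did not overlap in any of these genes, as the rule that chose them required. With CT-26 at the floor, the sodium-proton exchanger Slc9a2 was at least 264-fold and the myelin protein Pmp22 at least 244-fold higher in Colon 26.

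A pair of genes known for stress and cell death belonged to the same end. Pmaip1 encodes Noxa, a BH3-only protein that promotes apoptosis, and was at least 233-fold higher in Colon 26, with CT-26 at the floor. Atf3, a transcription factor of the stress response, was at 0.0936, 0.146 and 0.250 CPM in CT-26 against 38.1, 36.2 and 37.6 CPM in Colon 26, a log2 fold change of 7.79 (SE 0.13). The other genes of this end were Bin2, Akna, Stac2, Rangrf and Crip1, with log2 fold changes of 8.58 (SE 0.14), 8.51 (SE 0.14), 8.02 (SE 0.18), 8.17 (SE 0.19) and 7.80 (SE 0.10). Their CT-26 libraries held 0 to 7 counts, so single libraries weigh on the size of the fold. Without CT-26 replicate 1 it became 9.45 for Bin2 and 9.40 for Rangrf, without replicate 2 it became 7.37 for Stac2 and 7.52 for Rangrf, and without replicate 3 it became 9.13 for Akna and 8.82 for Stac2. Exons of Akna overlap Aknaos and those of Rangrf overlap Slc25a35, each on the other strand, and how strand was handled in counting is not given in the sources used here.

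At the other end, App and Prune2 were abundant in CT-26 and close to 0 in Colon 26. App encodes the amyloid precursor protein, a membrane protein made in most tissues. Its levels were 728, 763 and 728 CPM in CT-26 against 0.333, 0.200 and 0.302 CPM in Colon 26, a log2 fold change of -11.37 (SE 0.07). Prune2, a large protein with a BCH domain, was at 263, 278 and 285 CPM in CT-26 against 0, 0.0499 and 0.0504 CPM in Colon 26, at least 3533-fold lower in Colon 26. Slc1a2, the main glutamate transporter of astrocytes, was at 94.2, 96.4 and 90.0 CPM in CT-26 against 0.0278, 0 and 0.0504 CPM in Colon 26, at least 1200-fold lower in Colon 26. All Colon 26 libraries lay far under all CT-26 libraries in these genes. Rhox5, a homeobox gene of placenta and testis, was at 186, 182 and 181 CPM in CT-26 against 0.639, 0.349 and 0.655 CPM in Colon 26, a log2 fold change of -8.38 (SE 0.07).

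Some genes gave no count in any Colon 26 culture. Arap2, a GTPase-activating protein for Arf, was at 95.5, 97.0 and 95.0 CPM in CT-26 against 0, 0 and 0 CPM in Colon 26, at least 1230-fold lower in Colon 26. Manea, an endomannosidase of the Golgi, Ly9, a receptor of the SLAM family known from lymphocytes, and Ints6l were likewise at 0 in Colon 26, at least 633-, 336- and 299.9-fold lower. Ly9 averaged 26.2 ± 1.43 CPM (SD, n = 3) in CT-26, and the leukocyte gene Ptprc (CD45) averaged 0.162 CPM in the same CT-26 cultures. Fam83f (at least 433-fold) and the glycosphingolipid enzyme B4galt6 (at least 336-fold) were at the floor in Colon 26. Ogdhl, Fam135a, Ppef1 and Dthd1 had log2 fold changes of -9.80, -9.58, -9.03 and -8.81.

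**Figure D2:**
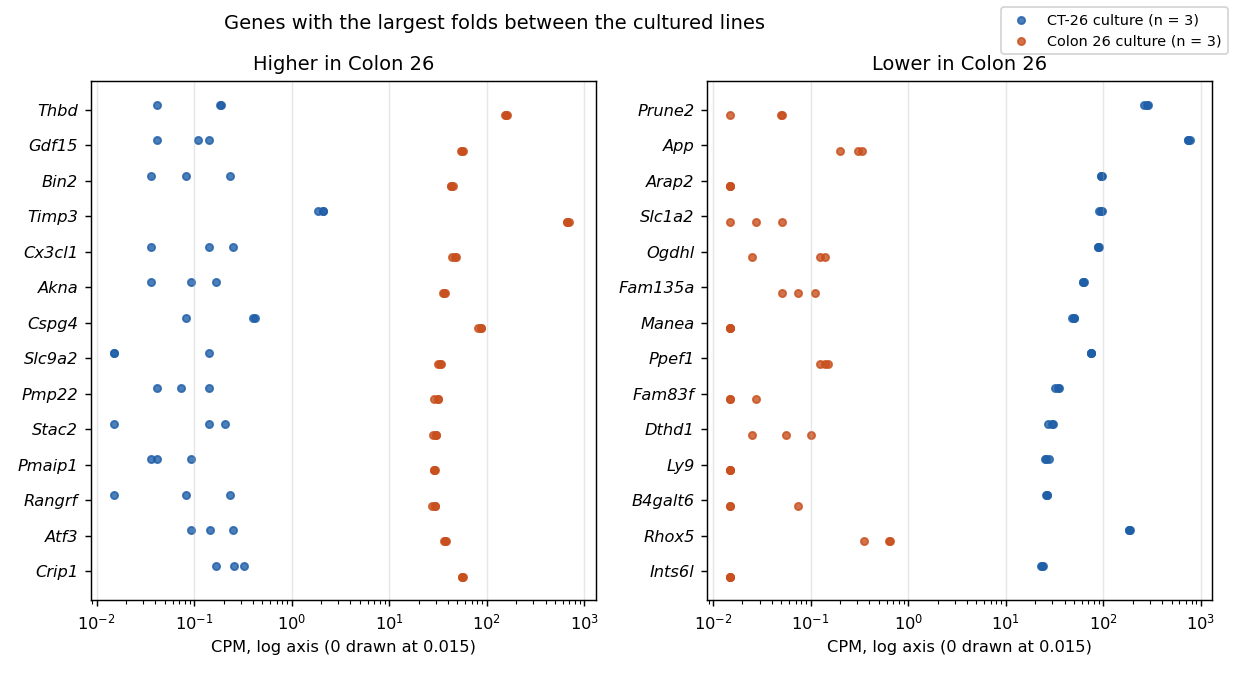
CPM of the 28 genes with the largest folds, on a log axis with 0 drawn at 0.015, 1 point per culture (blue CT-26, orange Colon 26, n = 3 each), with genes higher in Colon 26 on the left and lower on the right. In every gene the 3 libraries of one line lie apart from the 3 of the other, as the rule that chose the genes required. The smallest fold, from the fitted log2 fold change or the bound at the floor, was 221.

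Genes at the floor in one line were counted over all protein-coding genes. At the floor in CT-26 and at a mean of at least 1 CPM in Colon 26 were 129 genes, 53 of them at 5 CPM or more. The reverse held for 78 genes, 30 of them at 5 CPM or more. The counts of the 2 directions are not on one footing, because CT-26 libraries were shallower. A level of 3 counts was 0.110 to 0.140 CPM in CT-26 libraries and 0.0749 to 0.0833 CPM in Colon 26 libraries. A gene was thus more easily at the floor in CT-26. Ordered along the chromosomes among 11375 expressed protein-coding genes, there were 0 neighbouring pairs among the 53 and 0 among the 30. Pairs would be rare by chance with so few genes, so these counts say little on local clustering. They also depend on the floor. Arap2, one of the 30, lies at 62602445 to 62766159 on chromosome 5, and Dthd1 at 62813823 to 62888308. Dthd1 held 2, 4 and 1 counts in Colon 26 libraries and was thus not at the floor.

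The 8 genes higher in Colon 26 by the difference of FPKM were Timp3, Crip1, Spp1, Ifitm3, Impdh2, Serpinf1, H1f0 and Sparc. Spp1 (osteopontin), a secreted matrix and cytokine-like protein, was at 2398 ± 38.2 FPKM in CT-26 against 8965 ± 92.7 FPKM in Colon 26 (SD, n = 3), a log2 fold change of 1.89 (SE 0.02) on counts. Serpinf1, the secreted angiogenesis inhibitor PEDF, was at 3.00 ± 0.189 FPKM in CT-26 against 157 ± 7.51 FPKM in Colon 26 (SD, n = 3), a log2 fold change of 5.69 (SE 0.05). Sparc, a collagen-binding matrix protein, was at 82.8 ± 1.51 FPKM in CT-26 against 209 ± 3.22 FPKM in Colon 26 (SD, n = 3), a log2 fold change of 1.32 (SE 0.03). None of the 3 overlapped between the lines. Impdh2, an enzyme of guanine nucleotide synthesis, the antiviral membrane protein Ifitm3 and the linker histone H1f0 were also higher, at 1.84, 1.22 and 1.06.

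Lower in Colon 26 by abundance were Ctsl, B2m, S100a11 and 5 mitochondrial genes. Ctsl, the lysosomal protease cathepsin L, was at 1605 ± 14.8 FPKM in CT-26 against 603 ± 5.08 FPKM in Colon 26 (SD, n = 3), a log2 fold change of -1.43 (SE 0.02). B2m, the light chain of MHC class I, was at 1450, 1384 and 1323 CPM in CT-26 against 454, 425 and 450.5 CPM in Colon 26, a log2 fold change of -1.64 (SE 0.04). S100a11, a calcium-binding protein, had a log2 fold change of -1.20 (SE 0.03). mt-Co1, mt-Cytb, mt-Nd5, mt-Atp8 and mt-Nd4 encode subunits of the respiratory chain and of ATP synthase, and had log2 fold changes of -1.24, -1.04, -1.04, -1.21 and -1.04. Of the 14 mitochondrial genes tested 6 were called, all lower in Colon 26 (42.9%, against 12.3% of all tested genes called lower). mt-Co2 averaged 0.583 and 0.295 CPM in CT-26 and Colon 26, and several mitochondrial genes overlap others, so these values also depend on how reads were assigned.

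The label of a colon carcinoma was checked against markers of the cell types that a culture could hold. Of 16 markers of colon epithelium 7 were at the floor in both lines, among them Epcam and Cdh1, which encode EpCAM and E-cadherin. The 16 summed to 72.7 to 73.2 CPM in CT-26 against 36.0 to 36.6 CPM in Colon 26. The 9 fibroblast markers summed to 1212 to 1262 CPM in CT-26 against 1483 to 1581 CPM in Colon 26, most of it Col1a2, which was not called (0.05 (SE 0.03)). Of the 9, Col1a1 and Pdgfrb were higher (2.39 and 1.13) and Col3a1 and Dcn lower (-1.29 and -5.26) in Colon 26. The defining epithelial junction genes were thus absent at this depth from both cultures. The 10 leukocyte markers summed to 1.75 to 2.04 CPM in CT-26 against 0.275 to 0.378 CPM in Colon 26. Endothelial markers summed to at most 1.31 CPM, skeletal muscle markers to at most 0.329 CPM and adipocyte markers to at most 3.04 CPM in a library.

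What was measurable of the epithelial genes differed between the lines. Of 42 colon epithelial genes, 10 passed the filter on low counts, of which 5 were lower and 1 higher in Colon 26. Their median log2 fold change was -0.81 against 0.01 for all tested genes, and 60.0% were called against 22.9% of all tested genes. Krt18 (keratin 18) was at 15.8, 15.8 and 16.1 CPM in CT-26 against 0, 0 and 0.0756 CPM in Colon 26, at least 204-fold lower. Krt20, a keratin of differentiated colonocytes, was at 25.5, 25.3 and 24.1 CPM in CT-26 against 5.83, 5.54 and 5.39 CPM in Colon 26, a log2 fold change of -2.16 (SE 0.06). Spint1, an inhibitor of epithelial proteases, was at least 9.94-fold lower, and Krt8 had a log2 fold change of -2.25 (SE 0.45). Cdx2, a homeobox factor of intestinal identity, was the gene called higher, at 0.140, 0.0730 and 0.250 CPM in CT-26 against 6.36, 5.91 and 6.10 CPM in Colon 26, a log2 fold change of 5.30 (SE 0.24).

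Mesenchymal, adhesion and matrix genes were called in both directions. Of 27 mesenchymal and contractile genes, 7 were higher and 4 lower in Colon 26 (40.7% called against 22.9% of all tested genes, median 0.37). Loxl1, which cross-links elastin, was at 0.374, 0.329 and 0.459 CPM in CT-26 against 30.2, 31.4 and 29.97 CPM in Colon 26, a log2 fold change of 6.29 (SE 0.11). Ccn2 (CTGF), a matrix-associated protein, was at 29.0, 31.3 and 30.6 CPM in CT-26 against 1.56, 1.497 and 1.51 CPM in Colon 26, a log2 fold change of -4.32 (SE 0.08). The intermediate filament gene Des and the tropomyosin gene Tpm2 followed at -2.60 and 2.39. Of 23 adhesion molecules 7 were higher and 8 lower (65.2% called). Cadm1, an adhesion molecule of the immunoglobulin family, was at 175, 177 and 173 CPM in CT-26 against 5.92, 5.44 and 6.30 CPM in Colon 26, a log2 fold change of -4.89 (SE 0.05). Ceacam1 was lower at -5.05, Podxl (podocalyxin) higher at 4.32, and Cdh4 at least 5.09-fold higher.

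Integrins and basement membrane genes were also mixed. Of 13 integrins 2 were higher and 3 lower (38.5% called against 22.9% of all tested genes). Itga6, a laminin receptor subunit, and Itga5, of the fibronectin receptor, were lower at -2.13 (SE 0.03) and -1.44 (SE 0.04), while Itgb8, which takes part in activating latent TGF-beta, was higher at 3.96 (SE 0.24) and the collagen receptor subunit Itga1 at least 14.9-fold higher. Of 15 basement membrane genes 2 were higher and 3 lower (33.3% called). Nid1 was among the higher at 2.73, and the laminin chains Lamb3 and Lamc3 among the lower at -2.33 and -1.51.

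Of 34 proteases and inhibitors, 9 were higher and 9 lower in Colon 26, so that 52.9% were called against 22.9% of all tested genes. Plau (urokinase), which activates plasminogen, was at 0.234, 0.256 and 0.0834 CPM in CT-26 against 22.9, 25.1 and 24.4 CPM in Colon 26, a log2 fold change of 6.94 (SE 0.15). Serpinb2, an inhibitor of urokinase, was at least 32.9-fold lower in Colon 26. The metalloprotease gene Adamts9 was at least 101-fold higher.

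**Figure D3:**
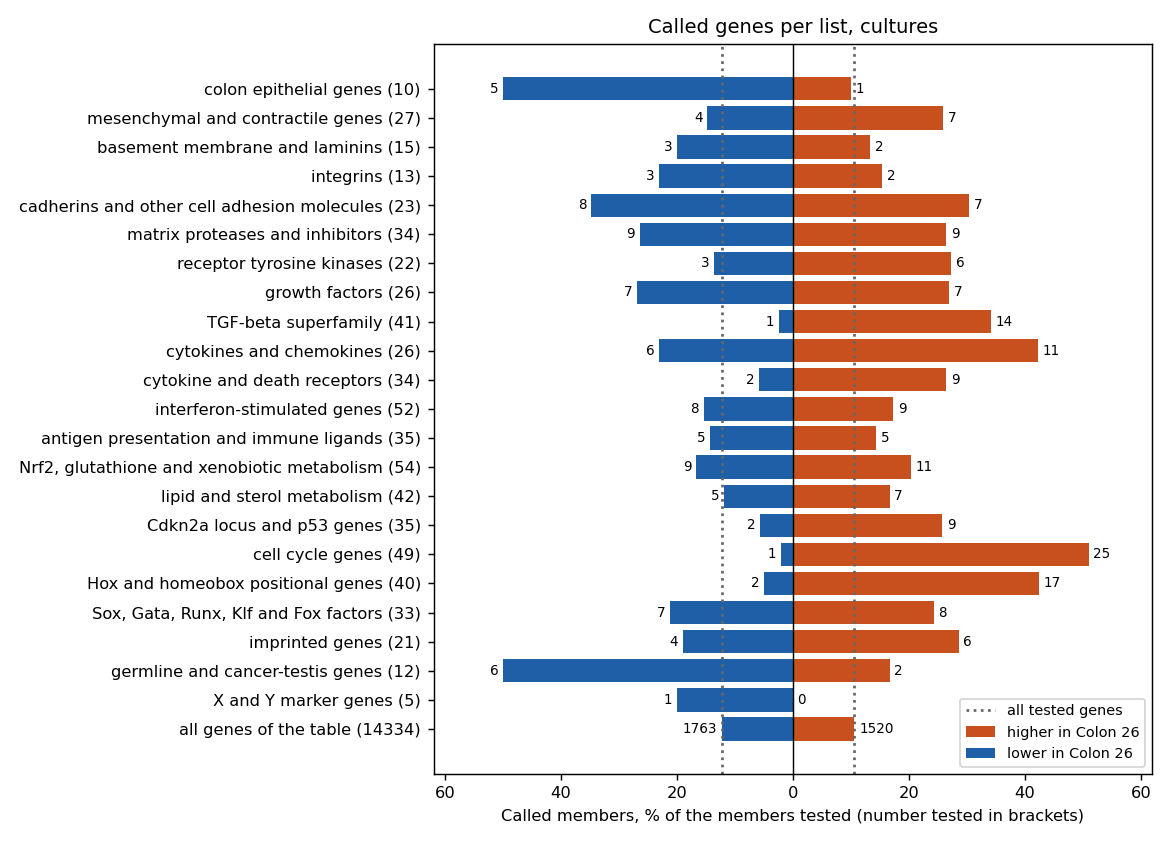
Share of the tested members of each gene list called lower (blue, left) or higher (orange, right) in Colon 26 cultures, in % of the number tested in brackets, with the number called at the end of each bar and the share of all tested genes as dotted lines. Of the cell cycle list 25 of 49 were higher and 1 lower, and of the germline list 6 of 12 lower and 2 higher.

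Growth factor genes were called equally in both directions, 7 higher and 7 lower of 26 (53.8% called against 22.9% of all tested genes). Tgfa, a ligand of the EGF receptor, was at 16.3, 16.1 and 15.4 CPM in CT-26 against 0.167, 0.0499 and 0.0504 CPM in Colon 26, a log2 fold change of -7.46 (SE 0.19). Kitl, the ligand of Kit, was at 113, 118 and 115 CPM in CT-26 against 17.9, 15.2 and 16.3 CPM in Colon 26, a log2 fold change of -2.81 (SE 0.05). Fgf1 and Angptl4, an inhibitor of lipoprotein lipase, were higher at 3.41 (SE 0.35) and 3.01 (SE 0.08). Among 22 receptor tyrosine kinases 6 were higher, led by Ptk7 (2.67) and Fgfr1 (1.69), and 3 lower, among them Ret (at least 38.6-fold) and Erbb3 (-2.78). The share of these kinases called was 40.9%.

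TGF-beta superfamily genes were called mostly higher in Colon 26, 14 higher and 1 lower of 41 (36.6% called against 22.9% of all tested genes, median 0.29). The list leaves out Bmp2 and Bmp4, which the study names as Wnt-regulated. Besides Gdf15, the secreted protein Fstl1 was at 3.60, 2.85 and 3.42 CPM in CT-26 against 164, 161 and 168 CPM in Colon 26, a log2 fold change of 5.65 (SE 0.06). Smad9, a transducer of BMP signals, and Ltbp2, of the latent TGF-beta binding proteins, were higher at 4.43 (SE 0.34) and 4.43 (SE 0.07). Id1, Id2 and Id3, transcription inhibitors that BMP signals induce, were higher at 1.81, 1.44 and 3.19. Bmp6 was the gene called lower, at -1.25 (SE 0.24).

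Of 26 cytokine and chemokine genes 11 were higher and 6 lower in Colon 26 (65.4% called against 22.9% of all tested genes). Besides Cx3cl1, Il16 and the alarmin Il33 were higher at 6.29 (SE 0.16) and 3.61 (SE 0.30), and Il23a was lower at -3.06 (SE 0.32). Of 34 cytokine and death receptor genes 9 were higher and 2 lower (32.4% called). Osmr, the oncostatin M receptor, was at 0.234, 0.329 and 0.334 CPM in CT-26 against 5.97, 6.76 and 6.65 CPM in Colon 26, a log2 fold change of 4.40 (SE 0.19). Il15ra was higher at 5.68 and Il13ra1 lower at -3.15.

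Interferon-stimulated genes had no common direction in culture, with 9 higher, 8 lower and 35 not called of 52 (32.7% called, median 0.11). Oas2, an oligoadenylate synthetase, was lower at -2.69 (SE 0.09), and Cmpk2, Rsad2 and Mx2 were higher at 2.15 (SE 0.17), 1.87 (SE 0.12) and 1.86 (SE 0.23). Oas genes are close copies, and the split of reads among them is uncertain. Of 35 genes of antigen presentation and immune ligands 5 were higher and 5 lower, 28.6% called, near the 22.9% of all tested genes. Beside B2m, the class I gene H2-D1 was at 868, 889 and 887 CPM in CT-26 against 398, 399 and 398 CPM in Colon 26, a log2 fold change of -1.15 (SE 0.03), while the non-classical H2-T23 was higher at 2.29. H2 genes are a family of close copies too, with the same uncertainty. Cd274 (PD-L1) was at 15.2, 15.6 and 15.6 CPM in CT-26 against 5.64, 5.79 and 5.95 CPM in Colon 26, a log2 fold change of -1.42 (SE 0.07). The inhibitory ligand Vtcn1 was lower at -3.77, the costimulatory ligand Icosl higher at 2.43 and Nt5e (CD73) at least 9.58-fold higher.

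Of 54 genes that handle drugs and oxidants, 11 were higher and 9 lower in Colon 26 (37.0% called against 22.9% of all tested genes, median -0.05). Nqo1, a quinone reductase that Nrf2 induces, was at 0.327, 0.548 and 0.417 CPM in CT-26 against 25.5, 24.2 and 25.1 CPM in Colon 26, a log2 fold change of 5.81 (SE 0.12). Hmox1, a heme oxygenase that Nrf2 also induces, was at 316, 318 and 304 CPM in CT-26 against 59.8, 61.2 and 61.7 CPM in Colon 26, a log2 fold change of -2.36 (SE 0.03). These targets of one factor thus differed in opposite directions. Abcb1a, a P-glycoprotein pump that exports many drugs, was at 125, 128 and 130.4 CPM in CT-26 against 7.44, 6.71 and 6.48 CPM in Colon 26, a log2 fold change of -4.22 (SE 0.05). Cyp27a1, a sterol hydroxylase, and Gstt3 were at least 41.1-fold and 11.4-fold higher. Of 42 lipid genes 7 were higher and 5 lower (28.6% called, near the 22.9% of all tested genes), with Pltp, a phospholipid transfer protein, Cpt1c and the cholesterol exporter Abcg1 at 7.44, 7.53 and 5.57, and the lipase Lipg at least 5.23-fold higher.

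Cell cycle genes were called almost wholly in one direction in culture. Of 49 tested, 25 were higher and 1 lower in Colon 26 (53.1% called against 22.9% of all tested genes). The median log2 fold change of the 49 was 1.02 against 0.01 for all tested genes. Ccna2 (cyclin A2) was at 50.7, 48.9 and 50.6 CPM in CT-26 against 232, 218 and 232 CPM in Colon 26, a log2 fold change of 2.18 (SE 0.04). The proliferation marker Mki67 was at 146, 151 and 154 CPM in CT-26 against 361, 348 and 363 CPM in Colon 26, a log2 fold change of 1.24 (SE 0.03). Cdc20 and Plk1, of mitosis, and Tk1, of thymidine salvage, were higher at 1.96, 1.86 and 1.81, and Ccnd2 (cyclin D2) was the gene called lower, at -1.05. Of 35 genes of the Cdkn2a locus and the p53 pathway 9 were higher, among them Gdf15, Pmaip1, the death receptor Fas (2.10) and Dmrta1 (at least 14.0-fold), and 2 lower. The share of these 35 genes called was 31.4%. The p53 targets Cdkn1a and Mdm2 were not called, at -0.19 and -0.32. The cell cycle inhibitor genes Cdkn2a and Cdkn2b were at the floor in both lines.

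Of 40 Hox and other homeobox genes tested, 17 were higher and 2 lower in Colon 26 (47.5% called against 22.9% of all tested genes, median 0.54). Hoxb7, Hoxb4 and Dlx2 were at least 8.28-, 18.05- and 7.29-fold higher, and Hoxc8 was at 0, 0 and 0 CPM in CT-26 against 3.11, 2.05 and 2.02 CPM in Colon 26. Levels were low, since the 8 Hox genes called higher averaged 0.867 to 4.61 CPM in Colon 26 and 13 of 39 Hox genes were at the floor in both lines. Irx3 was at 3.74, 3.69 and 4.67 CPM in CT-26 against 67.0, 64.5 and 65.4 CPM in Colon 26, a log2 fold change of 4.02 (SE 0.06). Of 33 Sox, Gata, Runx, Klf and Fox factors 8 were higher and 7 lower (45.5% called). Foxf2, a factor of gut mesenchyme, was at 0, 0 and 0 CPM in CT-26 against 7.53, 7.19 and 7.51 CPM in Colon 26, at least 59.3-fold higher. Sox4 was at 41.5, 41.1 and 40.1 CPM in CT-26 against 1.25, 1.35 and 1.41 CPM in Colon 26, a log2 fold change of -4.93 (SE 0.07). Foxs1 was higher at 7.01, Klf14 at least 14.1-fold higher and Foxc2 at least 29.2-fold lower.

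Germline genes were mostly at the floor in both lines, 58 of 79. Of 12 tested 6 were lower in Colon 26, among them Rhox5, Dppa4 (-4.63) and Taf7l (-3.62), and 2 higher, led by Taf9b (5.65). The share of the 12 called was 66.7%, against 22.9% of all tested genes. Of 21 imprinted genes 6 were higher and 4 lower (47.6% called). Peg13 was at least 42.9-fold and Phlda2 at least 4.29-fold higher, and the proteoglycan Dcn and the amino acid transporter Slc38a4 were lower at -5.26 and -3.82. Xist, the RNA that silences an X chromosome, was at 1.36, 0.657 and 1.001 CPM in CT-26 against 0.111, 0.0998 and 0.151 CPM in Colon 26, a log2 fold change of -2.99 (SE 0.39), and its exons overlap Tsix. Exons of Abcb1a, Adamts9, App, Bmp6, Ccn2, Ccna2, Ccnd2, Cdc20, Cdkn1a, Cpt1c, Ctsl, Des, Fam83f, Fgfr1, Gstt3, H1f0, Il16, Impdh2, Irx3, Itga1, Krt8, Lamc3, Ltbp2, Nid1, Plk1, Pltp, Serpinb2, Slc1a2, Sox4, Spp1, Syn3, Tgfa, Tk1 and Xist also overlap another annotated gene, whose reads may be part of their values. For Spp1 this is Gm42793 on the same strand.

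Differences were not spread evenly over the chromosomes. On chromosome 13 the median log2 fold change was -0.57 over 556 tested genes, with 153 lower (27.5%, against 12.3% of all tested genes) and 26 higher in Colon 26. On chromosome 1 it was -0.35 over 875 genes, with 183 lower (20.9%) and 62 higher. Chromosome X differed along its length. In its first 60 Mb the median was -0.90 over 145 genes, with 60 lower (41.4%) and 2 higher. Beyond 60 Mb it was 0.12 over 276 genes, with 28 lower (10.1%) and 26 higher. This boundary was chosen after values in windows of 20 Mb were seen. Genes of a chromosome are not independent, copy number was not measured, and no test was made. In tumors of 100, 400 and 800 mm3 the medians were -0.42, -0.41 and -0.39 for chromosome 13, -0.30, -0.27 and -0.26 for chromosome 1, and -0.48, -0.47 and -0.60 for the first 60 Mb of chromosome X.

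**Figure D4:**
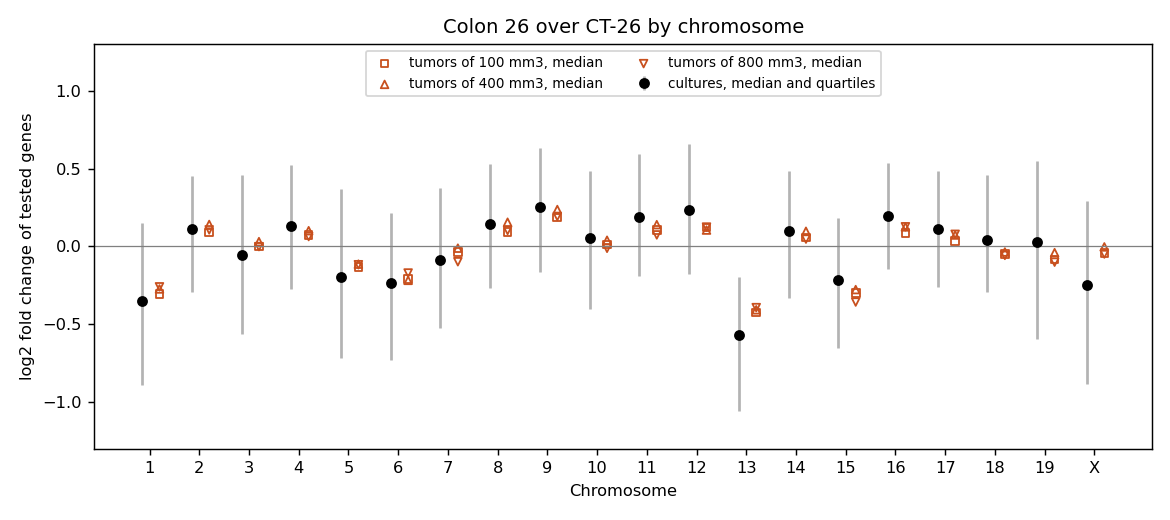
Median log2 fold change (Colon 26 over CT-26) of the tested genes of each chromosome, with quartiles for the cultures (black) and medians only for tumors of 3 sizes (orange). In culture the median was -0.57 for chromosome 13 and -0.35 for chromosome 1.

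Whether the named genes also separated tumors was asked at each size, with 4 tumors per line. In bulk tumors, fewer cells of a type and less RNA per cell cannot be told apart. Of the 42 named genes 41 were tested, and 27, 29 and 28 were called in the direction of the cultures at 100, 400 and 800 mm3. Of all genes 13.2% (6.17% higher, 7.06% lower), 14.3% (6.48% higher, 7.79% lower) and 14.1% (6.5% higher, 7.62% lower) were called at these sizes. Of the 28 genes chosen by fold, 26, 25 and 26 were called in the direction of the cultures, and of the 16 chosen by FPKM 3, 6 and 4. Akna was called at no size (0.55, 0.74 and 0.69) and Atf3 not at 400 mm3 (1.02, 0.81 and 1.37 at the 3 sizes). Dthd1 did not pass the filter on low counts in tumors.

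Some genes near 0 in cultured Colon 26 cells were measured in Colon 26 tumors. At 100 mm3 App was at 356, 529.6, 416 and 383 CPM in CT-26 tumors against 165, 218, 200.1 and 188 CPM in Colon 26 tumors, and its log2 fold changes at the 3 sizes were -1.13, -1.55 and -1.37. Prune2 was at 96.0, 150.3, 107 and 94.1 CPM in CT-26 tumors against 35.3, 31.4, 35.7 and 34.9 CPM in Colon 26 tumors, a log2 fold change of -1.70 (SE 0.15). Slc1a2 by contrast was at 49.8, 52.4, 37.7 and 31.4 CPM in CT-26 tumors against 0.0324, 0.111, 0.0376 and 0 CPM in Colon 26 tumors, a log2 fold change of -9.60 (SE 0.37). Rhox5 and the exchanger Slc9a2 also had large differences at the 3 sizes, -8.45, -8.84 and -8.46 for Rhox5 and 7.71, 9.85 and 8.58 for Slc9a2. Thbd was at 5.76, 3.81, 5.11 and 10.4 CPM in CT-26 tumors against 56.8, 48.8, 49.4 and 59.3 CPM in Colon 26 tumors, a log2 fold change of 3.09 (SE 0.27). Timp3 was at 50.3, 53.6, 55.6 and 37.6 CPM in CT-26 tumors against 594, 457, 394 and 405 CPM in Colon 26 tumors, a log2 fold change of 3.23 (SE 0.17). Tumors of the lines did not overlap in these genes at 100 mm3.

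**Figure D5:**
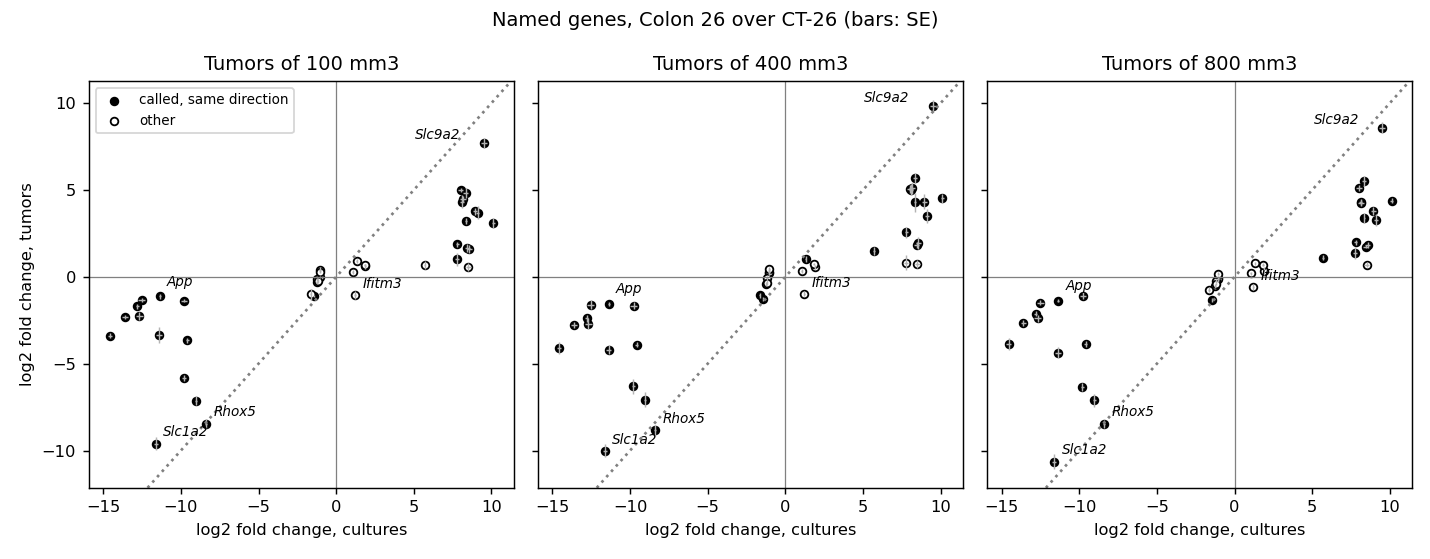
Log2 fold change (Colon 26 over CT-26, bars SE) of the 41 named genes tested in tumors, with cultures on the horizontal and tumors of 100, 400 and 800 mm3 on the vertical axes, filled where called in the direction of the cultures and with the dotted line as equal values. Slc1a2 and Rhox5 lie near the line, App far from it, and Ifitm3 below 0 in tumors (overlapping at 800 mm3), and fitted values of genes at the floor in a culture depend on the prior count.

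Gene lists did not all do in tumors what they did in culture, though the change of a list between them was not tested. Of 50 cell cycle genes tested in tumors, 0, 0 and 0 were higher and 0, 1 and 1 lower in Colon 26 at 100, 400 and 800 mm3 (edgeR), and DESeq2 gave 0, 0 and 0 higher and 0, 1 and 1 lower. At an unadjusted p under 0.05, 1, 4 and 1 were higher and 32, 28 and 38 lower (edgeR), and the medians were -0.33, -0.26 and -0.45. Of 52 interferon-stimulated genes, 42, 41 and 28 were lower and 0, 0 and 0 higher in Colon 26 tumors, with medians of -1.98, -1.88 and -1.22. At an unadjusted p under 0.05, 0, 0 and 1 of them were higher (edgeR), and DESeq2 called 0, 0 and 0 higher. The 10 leukocyte markers summed to 704 to 1360 (median 828) CPM in CT-26 against 970 to 1313 (median 1219) CPM in Colon 26 tumors of 100 mm3, to 303 to 875 (median 760.2) against 702 to 1138 (median 893) CPM at 400 mm3, and to 652 to 908 (median 804) against 907 to 1225 (median 1048) CPM at 800 mm3. The medians were thus higher in Colon 26 at each size, with overlapping ranges, and their part in these differences was not tested. Of 45 TGF-beta superfamily genes 8, 8 and 10 were higher and 2, 3 and 3 lower. Beside these counts, 6.17%, 6.48% and 6.5% of all tested genes were called higher and 7.06%, 7.79% and 7.62% lower at the 3 sizes.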

How the data were processed

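RNA of cultured cells and tumors was sequenced from poly-A selected libraries. The authors deposited estimated counts per gene, made with the gene count report of Array Studio and Ensembl release 78 annotation. The authors also deposited FPKM per gene, scaled to depth and transcript length. The methods call the former raw, but 23.0% of the non-zero values were not whole, so they were rounded. Aligner, genome build and strand handling are not given in the sources used here. Of 53431 identifiers, 52207 were found in GENCODE M21 (GRCm38), which supplied names, types and positions, and 1187 identifiers of other kinds were at 0 in every library.

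The 3 Colon 26 and 3 CT-26 cultures were fitted alone with edgeR 4.0.16 (filterByExpr, TMM, quasi-likelihood test, Benjamini-Hochberg adjustment, R 4.3.3). Tumors were fitted per size in the same way. The calls took the thresholds of the study's methods, which used DESeq2. The methods' tool (DESeq2 1.42.0 here), limma 3.58.1 on log2(FPKM + 1) and log2(FPKM + 0.1), other normalizations and filters, thinned counts and fits without each library were alternatives. In simulated cultures, 200 of 200 changed genes were recovered and 5 unchanged genes called among 14085 tested. The changed genes were well counted, and their changes lay well beyond the minimum fold change, so high recovery was built in. Replicates were drawn independently and all other genes left unchanged. The simulation thus says nothing on smaller changes, genes near 0, widespread change or technical replicates. Figures were drawn with matplotlib 3.10.9.

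Genes were named by rule. Wnt and Fzd genes, the Wnt-regulated genes that the study names and unnamed loci were left aside. The lists also hold none of the Wnt ligands and Wnt-regulated genes that the study names, among them Bmp2, Bmp4, Itga3, Adamts5 and Mmp13. In each direction the 14 protein-coding called genes with the largest fold were taken, among those without overlap and at 10 CPM or more in the higher line, then the 8 with the largest FPKM difference. Per list the 4 called members with the largest change were named, and further members where a sentence turns on them, and a few are not reported here. The members and lists were chosen with earlier results of these data known. Depth was 21384712 to 39722570 counts per culture, reads carry no molecular identifiers, and bounds hold for the observed counts and are not confidence limits.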

Additional observations from a re-analysis of the deposited data

Results flagged for a closer look

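For 3 named genes the difference between the lines had one direction in cultures and the other in tumors of some sizes, with no overlap between the lines at those sizes or in culture. Ifitm3 was higher in Colon 26 cultures and lower in Colon 26 tumors of 100 mm3, at 845, 929, 546 and 594 CPM in CT-26 tumors against 285, 416, 427 and 284 CPM in Colon 26 tumors, a log2 fold change of -1.05, and of -0.98 at 400 mm3. At 800 mm3 the lines overlapped in Ifitm3, at -0.59. mt-Nd5 was lower in Colon 26 cultures and had a log2 fold change of 0.41 in tumors of 100 mm3, while the lines overlapped at 400 mm3 (0.27) and 800 mm3 (-0.15). mt-Nd4 was lower in Colon 26 cultures and had log2 fold changes of 0.29 and 0.46 in tumors of 100 and 400 mm3, while the lines overlapped at 800 mm3 (0.18). Of these tumor differences, that of Ifitm3 at 100 mm3 was called (edgeR) and the others were not. The difference between culture and tumor was not itself tested.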

How the results depend on the processing

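The 3283 genes called between the cultures became 1996 when every library needed at least 10 counts, which tests fewer genes, 1519 with limma on log2(FPKM + 1), whose pseudocount shrinks the change of low genes, and 11842 with no minimum fold change. The other alternatives stayed within 1.5 times, from 2857 (limma on log2(FPKM + 0.1)) to 4903 (no filter), with 3927 for DESeq2. Without 1 culture each, 3362 to 3584 genes were called, and 2915 of the 3283 (88.8%) were called in all 6 of these fits. The count of named genes called in the direction of the cultures was 26 to 29 at 100 mm3, 28 to 29 at 400 mm3 and 27 to 28 at 800 mm3 when 1 tumor was left out. None of the 42 named genes reversed under the alternatives run. Of them, mt-Cytb, mt-Nd5 and mt-Nd4 fell under the minimum fold change without a filter (-0.97, -0.97 and -0.96), as did mt-Nd5 without CT-26 replicate 2 (-0.99) or Colon 26 replicate 2 (-0.998). With at least 10 counts in every library, 16 of the 42 could be tested. Chromosome medians under other scalings, chosen after seeing the data, were -0.59 to -0.55 for chromosome 13. No paired analysis was possible because the labels of these libraries carry no replicate numbers. Lack of detection in culture means 3 or fewer counts at these depths.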

Other observations

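Because Gdf15, Atf3 and Pmaip1 are known to be induced by stress, other genes of the ATF4 and stress response were looked up after the values of those genes had been seen, and they did not share a direction. Atf4, whose protein drives this response, was at 727, 729 and 712 CPM in CT-26 against 706, 709 and 714 CPM in Colon 26, a log2 fold change of -0.03 (SE 0.03) that did not pass the test of edgeR. Its protein was not measured. Ddit3 (CHOP), an apoptosis-promoting factor, was at 319, 324 and 326 CPM in CT-26 against 101, 101 and 105 CPM in Colon 26, a log2 fold change of -1.65 (SE 0.03). Exons of Ddit3 overlap another entry of the same name on its strand, and Gm4189 and Mars on the other strand. Reads of these may be part of its values. Chac1, an enzyme that degrades glutathione, was lower at -1.21 (SE 0.03), and Ddit4, an inhibitor of mTOR signalling, was higher at 1.22 (SE 0.04). Asns, Trib3 and Sesn2 were not called, at -0.18, 0.28 and 0.44.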
